A study of Mus musculus with 2 samples.

Results

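The antioxidant and glutathione genes described here are 66 genes of 9 roles: glutathione peroxidases (Gpx), superoxide dismutases with catalase (Sod, Cat), peroxiredoxins with sulfiredoxin (Prdx, Srxn1), the thioredoxin system (Txn, Txnrd, Txnip, Txnl1), further genes named for a thioredoxin domain (Txndc, Txnl4), glutaredoxins (Glrx), the enzymes of glutathione synthesis and recycling (Gclc, Gclm, Gss, Gsr), cytosolic and mitochondrial glutathione transferases (Gst), and the quinone and heme enzymes Nqo1, Hmox1 and Hmox2. They were chosen by symbol alone among the 27729 genes listed in both libraries, out of 33038 listed in either. The same symbols matched 2 genes listed in 1 library only, Gsta2 and Txndc2, and 9 annotated pseudogenes, and these were left out.

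The cells came from dissociated pancreatic islets of control male C57BL/6J mice aged 8 weeks. They were prepared with RevGel-seq, in which each cell is tied to a barcoded bead inside a gel that can be turned liquid again. Both libraries are technical replicates of 1 islet preparation with 10000 input cells each, so their spread holds no difference between animals. C57BL/6J mice carry a deletion within Nnt, a mitochondrial source of NADPH for glutathione and thioredoxin reduction, and this applies to every group here.

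As background, cells turn superoxide into hydrogen peroxide with superoxide dismutases and then remove the peroxide with catalase, glutathione peroxidases or peroxiredoxins. Glutathione peroxidases spend glutathione, which glutathione reductase restores, and most peroxiredoxins are restored by thioredoxin and thioredoxin reductase, both at the cost of NADPH. Insulin-producing beta cells are known in rodents for little catalase and little cytosolic glutathione peroxidase, while their folding of insulin in the endoplasmic reticulum makes hydrogen peroxide.

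Library 1 held 735 cells with 15931154 unique molecular identifiers (UMIs, deduplicated transcripts), and library 2 held 748 cells with 17440292. The 66 genes took 70092 of these UMIs in library 1 (0.440%) and 75941 in library 2 (0.435%). Cells were grouped within each library by the hormones that reached 1% of their UMIs, where insulin is Ins1 plus Ins2. Insulin alone reached it in 182 and 190 cells of libraries 1 and 2, glucagon alone in 182 and 174, somatostatin alone in 35 and 23, and pancreatic polypeptide (Ppy) alone in 54 and 68. Glucagon with Ppy was found in 65 and 86 cells, somatostatin with Ppy in 77 and 71, and insulin with another hormone in 37 and 27. No hormone reached 1% in 91 and 92 cells, called hormone-free. None of the 66 genes took part in the grouping. A level below is the number of UMIs of a gene per 1000000 UMIs of the group that belong to no hormone gene, and values are given for library 1 and then library 2.

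Markers of the other cells were checked in each group. Of the hormone-free cells, 61 carried at least 3 of 8 endothelial markers (endothelial-like), 80 carried at least 3 of 8 leukocyte markers (leukocyte-like) and 42 met neither rule, which also asked for 2 more markers of the 1 list than of the other. These remaining 42 cells had ductal markers at a summed level of 5446 and 2739 and mesenchymal markers at 4057 and 1393, and they are called other hormone-free cells. In hormone-positive groups the endothelial list summed to 206 and 34.5 in insulin-only cells, 72.8 and 258 in glucagon-only cells, and 624 and 53.6 in somatostatin-only cells, against 24712 and 20820 in endothelial-like cells. Somatostatin-only cells also had the acinar list at 312 and 154, carried almost entirely by Cela1, with 6 of its 8 genes at 0 in library 1. Ppy-only cells had the ductal list at 821 and 758, against 239 and 319 in insulin-only cells. The part of these cells or transcripts in the results was not tested except where values without them are given.

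Summed over all 66 genes, insulin-only cells had the lowest level of the hormone-positive groups, 4433 ± 75.8 (SD, n = 2 libraries). Glucagon-only cells stood at 6823 ± 39.6, Ppy-only cells at 6144 ± 67.5, and somatostatin-only cells at 5685 ± 46.5. Hormone-free cells summed to 6191 ± 526, with 4789 ± 209 in endothelial-like, 4583 ± 56.1 in leukocyte-like and 9264 ± 641 in the other hormone-free cells. Over single cells, the median of the sum was 4924 and 4670 in hormone-free cells, below 5689 and 6144 in somatostatin-only cells, so the order of these 2 groups turns between the pooled sum and the median cell. Gpx3 carried a large part of the differences between insulin-only and the other endocrine cells, and none of the excess of hormone-free cells, which stood at 6153 ± 541 without it. Without Gpx3, insulin-only cells (4235 ± 69.2) and glucagon-only cells (4219 ± 10.3) differed by less than the larger SD, while somatostatin-only cells (4761 ± 23.2) and Ppy-only cells (4739 ± 56.7) stayed higher. With hormone UMIs kept in the denominator, the sums were 2679 in insulin-only, 5119 in glucagon-only, 5125 in somatostatin-only and 6170 in hormone-free cells, where hormones took a median of 38.9% and 41.7% of the UMIs of an insulin-only cell.

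**Figure D1:**
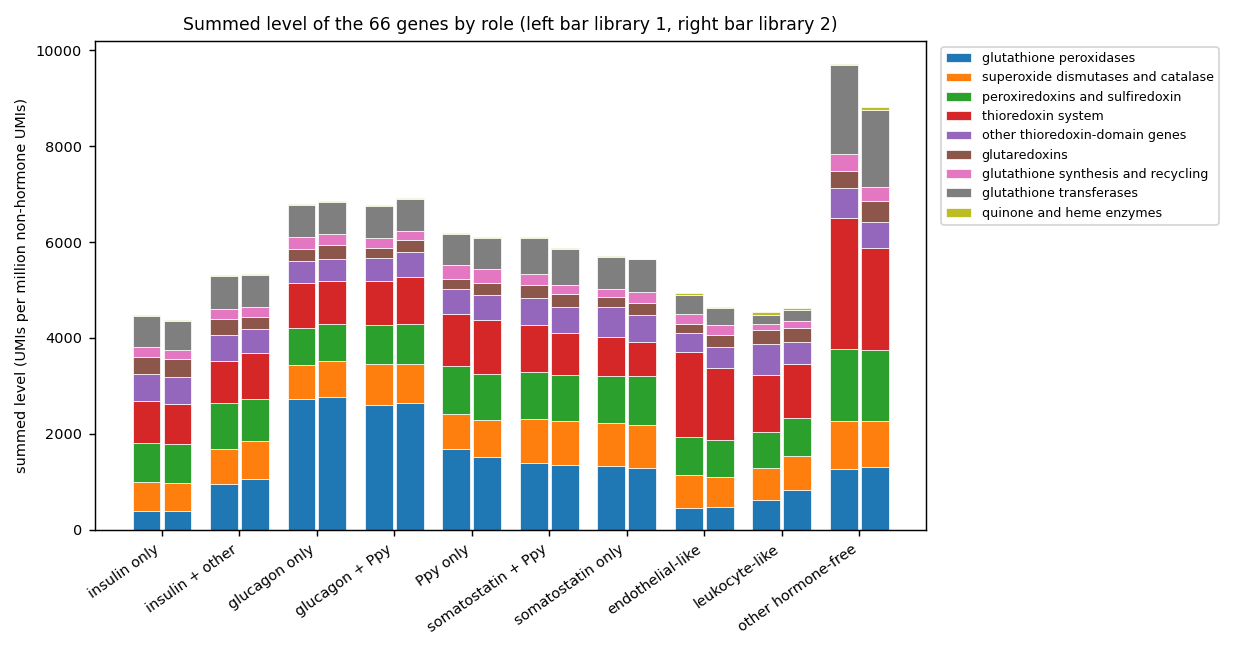
Summed level of the 66 genes (vertical axis, UMIs per 1000000 non-hormone UMIs) in 10 cell groups, split by role, with 1 stacked bar per library. Glutathione peroxidases sum to 2715 and 2772 in glucagon-only cells against 381 and 378 in insulin-only cells, the widest gap of the 9 roles between these groups. Pseudogene rows are not counted, among them Gpx4-ps2 at 91.0 and 80.7 in glucagon-only and 113 and 124 in insulin-only cells.

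Gene-by-gene differences were tested on UMIs summed per group and library with edgeR's quasi-likelihood test, adjusted over all genes tested, at an adjusted p of 0.05. Of the 66 genes, 59 passed the filter on low counts. Between insulin-only and glucagon-only cells, 12 members were higher and 6 lower in insulin-only cells, where 25.6% of all 14528 genes tested passed, 12.9% as higher and 12.6% as lower. Against somatostatin-only cells 6 members were higher and 6 lower, where 14.7% of all genes passed, 7.4% as higher and 7.32% as lower. Against Ppy-only cells 4 members were higher and 11 lower, where 20.7% of all genes passed, 10.2% as higher and 10.5% as lower. Between glucagon-only and somatostatin-only cells, 4 members were higher and 9 lower in glucagon-only cells, where 12.8% of all genes passed, 6.02% as higher and 6.8% as lower. Against hormone-free cells, 9 were higher and 26 lower in insulin-only cells (57.2% of all genes passed, 24.3% as higher and 32.9% as lower in insulin-only cells). The median log2 fold change of the tested members there was -0.40, beside -0.12 over all genes. This hormone-free group mixes endothelial-like, leukocyte-like and other cells. Transferases summed to a mean level of 632 in insulin-only, 374 in endothelial-like, 213 in leukocyte-like and 1730 in the other hormone-free cells. Peroxiredoxins with sulfiredoxin stood at 803, 792, 779 and 1501 in the same order, and the thioredoxin system at 855, 1627, 1161 and 2438. The part of each kind of cell in these calls was not tested. In the other 4 comparisons, the median of the members lay between -0.01 and 0.09, beside -0.01 to 0.03 over all genes. The comparisons share their groups and are not independent of each other.

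Among the glutathione peroxidases, Gpx3, which encodes the secreted plasma form, separated the endocrine groups. Its level was 203 and 193 in insulin-only cells, 2584 and 2625 in glucagon-only cells, 1492 and 1316 in Ppy-only cells and 973 and 875 in somatostatin-only cells. No 2 of these groups overlapped. Cells with glucagon and Ppy (2439 and 2481) stood near glucagon-only cells, and cells with somatostatin and Ppy (1051 and 993) stood near somatostatin-only cells. Insulin-only cells were lower than glucagon-only cells by a log2 fold change of -3.69 (SE 0.16, adjusted p = 4.71e-11), lower than Ppy-only cells (-2.79, SE 0.16, adjusted p = 1.72e-09) and lower than somatostatin-only cells (-2.09, SE 0.16, adjusted p = 9.08e-08). Glucagon-only cells were higher than somatostatin-only cells by 1.60 (SE 0.15, adjusted p = 1.36e-06). Endothelial-like cells (11.1 and 19.8) and leukocyte-like cells (21.7 and 23.5) had little of it, and insulin-only cells lay above all 4 of these values. Insulin-only cells remained above the whole hormone-free group, at 27.7 and 48.6 (log2 2.24, SE 0.17, adjusted p = 1.50e-08).

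Gpx1, the main cytosolic glutathione peroxidase, had another order. Its level was 146 and 152 in insulin-only, 113 and 131 in glucagon-only and 142 and 150 in Ppy-only cells. Insulin-only cells did not differ at the threshold from glucagon-only or Ppy-only cells. Somatostatin-only cells stood at 330 and 379, and cells with somatostatin and Ppy at 317 and 333. Both glucagon-only (log2 -1.42, SE 0.15, adjusted p = 3.77e-06) and insulin-only cells (-1.11, SE 0.15, adjusted p = 5.04e-05) were lower than somatostatin-only cells. Without cells that carried 3 or more endothelial or leukocyte markers, Gpx1 in somatostatin-only cells was 330 and 393. Hormone-free cells reached 666 and 652, above insulin-only cells (log2 of insulin-only over hormone-free -2.25, SE 0.14, adjusted p = 9.96e-10).

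The rows of the other Gpx genes held few UMIs in endocrine cells. Gpx2, best known from gut epithelium, was at 17.3 and 19.0 in insulin-only cells against 6.48 and 6.73 in glucagon-only cells (log2 1.47, SE 0.34, adjusted p = 0.00401), and at 97.1 and 170 in the other hormone-free cells. Its difference from somatostatin-only cells (adjusted p = 0.0471) was lost under 7 alternatives. Gpx7, a peroxidase of the endoplasmic reticulum, was at 10.99 and 16.8 in somatostatin-only cells from 10 UMIs, 60.0% of them in 3 cells, against 2.58 and 0.421 in insulin-only cells. Gpx8, its membrane-bound relative, was at 50.3 and 44.0 in hormone-free cells, while insulin-only cells had 2 UMIs in all (ratio 119, 95% counting interval 32.4 to 987). Of the 175 UMIs of Gpx8 in hormone-free cells, 142 were in endothelial-like and 0 in leukocyte-like cells. Gpx4, which reduces lipid peroxides and guards against ferroptosis, could not be measured from its own row. That row took 12.2 and 13.9 in insulin-only cells while the pseudogene Gpx4-ps2 took 113 and 124, and reads of near-identical copies cannot be told apart here. Gpx4's own row did not pass the threshold in any of the 6 comparisons. With the UMIs of its pseudogene copies added, an alternative chosen after seeing the data, the level was 125 and 138 in insulin-only, 102 and 90.0 in glucagon-only, 90.1 and 83.8 in somatostatin-only, 90.2 and 80.9 in Ppy-only and 199 and 180 in hormone-free cells. It then passed in 5 of the 6 comparisons, with insulin-only cells above glucagon-only (log2 0.47, adjusted p = 0.0131), somatostatin-only (0.72, adjusted p = 0.00854) and Ppy-only cells (0.66, adjusted p = 0.0026) and below hormone-free cells (-0.63, adjusted p = 5.16e-04), and endothelial-like above leukocyte-like cells (1.17, adjusted p = 3.49e-04). Which of these UMIs came from Gpx4 was not tested.

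**Figure D2:**
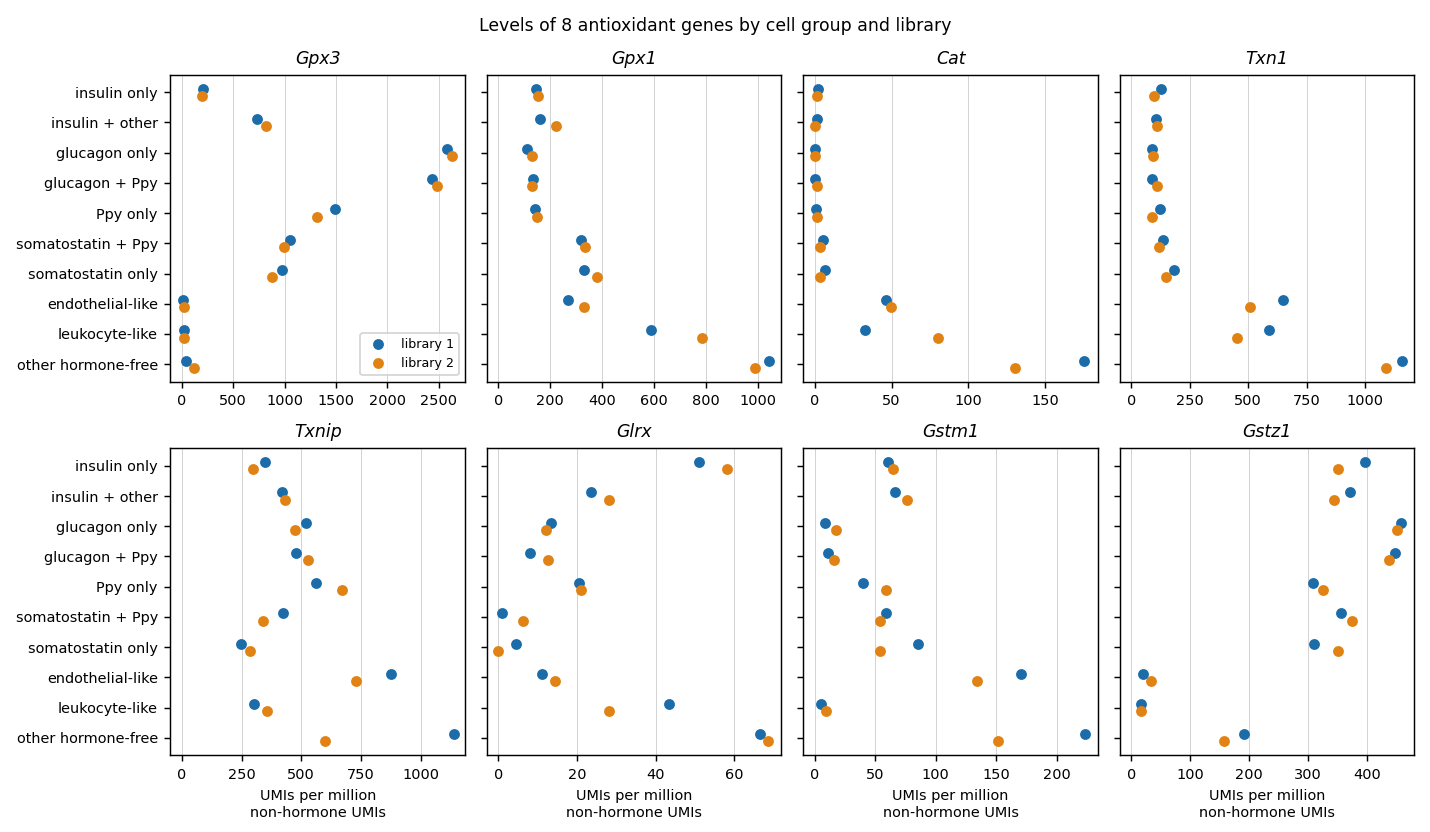
Level of 8 genes (horizontal axes, linear, UMIs per 1000000 non-hormone UMIs) in 10 cell groups, with 1 point per library. Gpx3 is at 2584 and 2625 in glucagon-only cells and at 203 and 193 in insulin-only cells, while Cat, Gpx1 and Txn1 have their 2 highest points in the other hormone-free cells.

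Catalase, the peroxisomal enzyme that breaks down hydrogen peroxide without a cofactor thiol, was close to undetected in every endocrine group. Its 10 UMIs in 372 insulin-only cells gave 2.21 and 1.68, and its 2 UMIs in 356 glucagon-only cells gave 0.381 and 0.354. Ppy-only cells were at 0.859 and 1.17. Somatostatin-only cells, with 4 UMIs, were at 6.59 and 3.35. That is above glucagon-only cells in the test (log2 -3.46, adjusted p = 0.031), with a ratio of 14.5 and a 95% counting interval of 2.07 to 160, and the call was lost with no filter on low counts. Hormone-free cells stood at 89.3 and 81.5, above insulin-only cells in both libraries (log2 of insulin-only over hormone-free -5.49, SE 0.40, adjusted p = 8.72e-09). All 3 kinds of hormone-free cells had it, at 46.6 and 49.6 in endothelial-like, 32.5 and 79.9 in leukocyte-like and 176 and 131 in the other hormone-free cells.

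The superoxide dismutases were far more even. Sod1, the copper and zinc enzyme of the cytosol, lay between 506 and 521 in insulin-only, 618 and 625 in glucagon-only, 624 and 652 in Ppy-only and 768 and 809 in somatostatin-only cells. Insulin-only cells were lower than somatostatin-only cells (log2 -0.48, SE 0.10, adjusted p = 0.00392), and their difference from glucagon-only cells (-0.25, adjusted p = 0.077) missed the threshold. The difference from hormone-free cells (-0.27, adjusted p = 0.0316) was lost under 6 alternatives. Sod2, the mitochondrial manganese enzyme, stood at 97.4 and 93.9 in insulin-only, 98.7 and 111 in glucagon-only and 98.7 and 95.9 in hormone-free cells, and passed in none of the 6 comparisons. Extracellular Sod3 had 36 UMIs in all and was not tested, with 13.8 and 5.10 in hormone-free cells and 0.369 and 0 in insulin-only cells.

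The promoters of Gpx3 and Cat are shown because these genes separated endocrine or hormone-free cells, beside 2 genes of the set whose promoters match the antioxidant response element, the motif bound by the stress regulator Nrf2. Each sequence is the 250 bases before a RefSeq start (GRCm38.p6), read along the gene. Capitals mark a match to TGACNNNGC on either strand. Gpx3 lies on the plus strand at chr11:54902604-54902853, Cat on the minus strand at chr2:103485154-103485403, Gclm on the plus strand at chr3:122245307-122245556, and Prdx1 on the plus strand at chr4:116685349-116685598. In the GENCODE annotation Gpx3 begins at 54902453, so its whole window lies inside the annotated gene, past that start. The windows of Cat and Prdx1 overlap their annotated genes in part.
Gpx3: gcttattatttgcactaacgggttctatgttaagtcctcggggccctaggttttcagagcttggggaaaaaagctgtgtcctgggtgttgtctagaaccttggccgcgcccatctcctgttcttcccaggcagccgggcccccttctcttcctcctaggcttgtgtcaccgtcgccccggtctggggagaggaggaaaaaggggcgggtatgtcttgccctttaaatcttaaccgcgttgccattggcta
Cat: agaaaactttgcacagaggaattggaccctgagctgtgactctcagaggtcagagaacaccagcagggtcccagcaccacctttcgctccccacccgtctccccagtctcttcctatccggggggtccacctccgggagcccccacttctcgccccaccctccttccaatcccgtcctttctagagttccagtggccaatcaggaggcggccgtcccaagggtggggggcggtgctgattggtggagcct
Gclm: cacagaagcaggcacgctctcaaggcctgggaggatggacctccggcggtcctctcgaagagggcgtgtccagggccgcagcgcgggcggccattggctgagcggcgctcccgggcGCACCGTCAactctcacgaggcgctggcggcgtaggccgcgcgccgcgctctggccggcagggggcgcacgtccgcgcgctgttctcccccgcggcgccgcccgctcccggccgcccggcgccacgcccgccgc
Prdx1: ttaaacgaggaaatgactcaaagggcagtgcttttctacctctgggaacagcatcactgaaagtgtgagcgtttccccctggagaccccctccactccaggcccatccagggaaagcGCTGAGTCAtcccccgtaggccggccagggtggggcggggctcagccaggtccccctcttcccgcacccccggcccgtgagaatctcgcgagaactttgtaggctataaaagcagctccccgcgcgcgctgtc
The match begins 134 bases before the start in Gclm and 133 before it in Prdx1. Of 56 members with such a window, 9 (16.1%) held a match in at least 1 window, and of all 27025 genes with a window 11.5% did. The 9 were Gclm, Gsta3, Gstm5, Gstm7, Prdx1, Sod1, Txndc11, Txndc5 and Txnrd1. Their directions were mixed: against hormone-free cells, insulin-only cells had more Gclm and Txndc11, less Prdx1, Gsta3 and Sod1, and did not differ at the threshold in the remaining 4. The Sod1 call was lost under 6 alternatives and the Gclm call under 1, and Gsta3 had 4 UMIs in insulin-only cells.

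Peroxiredoxins reduce peroxides with a cysteine of their own. Prdx4, the form of the endoplasmic reticulum, was lowest in insulin-only cells at 19.9 and 16.4. It stood at 49.5 and 57.7 in glucagon-only, 59.3 and 57.0 in somatostatin-only and 85.1 and 69.8 in Ppy-only cells, with no overlap between insulin-only cells and the other 3 groups. The log2 fold changes of insulin-only cells against them were -1.53 (SE 0.29, adjusted p = 7.19e-04), -1.54 (SE 0.38, adjusted p = 0.0112) and -2.04 (SE 0.30, adjusted p = 8.07e-05), and -1.86 against hormone-free cells (adjusted p = 4.25e-05). Cytosolic Prdx6, a peroxidase that draws on glutathione, went the other way between the 2 largest groups, at 221 and 224 in insulin-only and 110 and 132 in glucagon-only cells (log2 0.90, SE 0.13, adjusted p = 6.97e-05), with 259 and 245 in somatostatin-only cells. Cytosolic Prdx2 was at 149 and 172 in insulin-only against 259 and 233 in glucagon-only cells (-0.59, SE 0.15, adjusted p = 0.00626).

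Prdx1, also cytosolic, was at 191 and 182 in insulin-only cells, 275 and 307 in Ppy-only cells (log2 -0.61, adjusted p = 0.00495) and 448 and 375 in hormone-free cells (-1.24, SE 0.14, adjusted p = 1.00e-06). Mitochondrial Prdx3 (22.5 and 24.0 in insulin-only cells) and Prdx5 (140 and 131) passed in none of the 5 comparisons that involve hormone-positive cells. Srxn1, sulfiredoxin, which rescues over-oxidised peroxiredoxins, was at 53.5 and 58.5 in insulin-only cells against 36.6 and 28.7 in glucagon-only cells (0.80, SE 0.23, adjusted p = 0.0146) and 25.1 and 38.9 in hormone-free cells (0.68, adjusted p = 0.0208). The call of Srxn1 against hormone-free cells was lost under 1 alternative. Within the hormone-free cells, Srxn1 and Prdx4 passed as higher in endothelial-like than in leukocyte-like cells.

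In the thioredoxin system, the endocrine groups held little Txn1, the cytosolic thioredoxin itself. It was at 126 and 97.3 in insulin-only, 90.7 and 95.3 in glucagon-only, 124 and 90.3 in Ppy-only and 185 and 148 in somatostatin-only cells. Hormone-free cells reached 815 and 656, and insulin-only cells were below them by a log2 fold change of -2.82 (SE 0.17, adjusted p = 9.87e-10). All 3 kinds of hormone-free cells lay above every endocrine group, at 650 and 507 in endothelial-like, 588 and 451 in leukocyte-like and 1157 and 1090 in the other hormone-free cells. The reductases of thioredoxin showed no such difference at the threshold. Txnrd1, the cytosolic reductase, was at 116 and 125 in insulin-only and 114 and 97.3 in hormone-free cells (log2 0.09, adjusted p = 0.60), and neither it nor mitochondrial Txnrd2 passed in any comparison. Mitochondrial Txn2 was at 44.7 and 48.4 in insulin-only and 71.7 and 75.5 in hormone-free cells (-0.77, SE 0.21, adjusted p = 0.00477).

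Txnip, the glucose-responsive protein that binds and blocks thioredoxin, was at 348 and 297 in insulin-only cells and 246 and 285 in somatostatin-only cells. It was higher in glucagon-only cells at 521 and 475 (log2 of insulin-only over glucagon-only -0.60, SE 0.15, adjusted p = 0.00559), in Ppy-only cells at 561 and 672 (-0.90, SE 0.15, adjusted p = 2.97e-04) and in hormone-free cells at 774 and 582 (-1.17, SE 0.15, adjusted p = 4.21e-06). Leukocyte-like cells, whose levels are given below, overlapped insulin-only cells in this gene, while endothelial-like cells lay above them. Txnip overlaps the gene Gm15441 on the other strand, and whether the counting used strand is not given in the sources used here. Txnl1, a thioredoxin-like protein tied to the proteasome, was at 228 and 239 in insulin-only cells against 122 and 140 in glucagon-only (0.86, SE 0.17, adjusted p = 0.00109), 182 and 90.5 in somatostatin-only (0.85, adjusted p = 0.00894) and 130 and 131 in hormone-free cells (0.73, adjusted p = 0.0017). The libraries of somatostatin-only cells lay far apart in this gene.

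Of the 9 further genes with a thioredoxin domain, 2 were higher and 0 lower in insulin-only than in glucagon-only cells. Of all genes, 12.9% passed as higher and 12.6% as lower, and 9 genes are too few to compare with these shares. The 2 higher genes were Txndc15 at 89.3 and 96.0 against 50.3 and 62.3 (log2 0.74, adjusted p = 0.0071) and Txnl4a, a splicing factor, at 52.4 and 60.2 against 29.7 and 31.5 (0.90, adjusted p = 0.0138). Txndc16 and Txndc17 passed in opposite directions against somatostatin-only cells, with Txndc16 at 27.7 and 19.0 against 68.1 and 43.6 and Txndc17 at 117 and 112 against 85.7 and 63.7. Txndc5, a protein disulfide isomerase family member, passed in none of the comparisons among endocrine groups, with 49.9 to 104 over their 8 sums.

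Glutaredoxins, which use glutathione to reduce mixed disulfides, had 2 of 4 members, Glrx and Glrx5, higher in insulin-only than in glucagon-only, somatostatin-only and Ppy-only cells, where 12.9%, 7.4% and 10.2% of all genes were higher. As above, 4 genes are too few to compare with these shares, and the comparisons share the insulin-only cells. Against hormone-free cells only Glrx5 of the 4 passed. Glrx, the cytosolic form, was at 50.9 and 58.1 in insulin-only cells, 13.3 and 12.0 in glucagon-only cells, 20.6 and 21.1 in Ppy-only cells and 4.39 and 0 in somatostatin-only cells. Cells with insulin and another hormone were at 23.5 and 28.3, and hormone-free cells at 42.8 and 33.8, which did not pass against insulin-only cells (log2 0.41, adjusted p = 0.227). The log2 fold change of insulin-only cells was 2.12 over glucagon-only (SE 0.31, adjusted p = 5.74e-05) and 1.42 over Ppy-only cells (SE 0.31, adjusted p = 0.00356). Over somatostatin-only cells, whose 2 UMIs make the fold uncertain, the ratio was 20.4 with a counting interval of 5.61 to 170. Glrx5, the mitochondrial form that hands on iron-sulfur clusters, was at 163 and 173 in insulin-only against 74.7 and 95.3 in glucagon-only (1.00, SE 0.19, adjusted p = 5.89e-04), 61.5 and 83.8 in somatostatin-only (1.38, adjusted p = 0.00103) and 62.7 and 69.8 in Ppy-only cells (1.37, adjusted p = 9.01e-05). Glrx2 and Glrx3 passed in none of these comparisons.

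In glutathione synthesis, the modifier subunit Gclm of the rate-limiting ligase was lower in insulin-only cells, at 104 and 91.0, than in glucagon-only cells, at 142 and 137 (log2 -0.50, SE 0.15, adjusted p = 0.0174), and Ppy-only cells, at 157 and 149 (-0.61, SE 0.15, adjusted p = 0.00712). The first of these calls was lost with DESeq2. The catalytic subunit Gclc was at 31.0 and 25.7 in insulin-only and 30.1 and 29.0 in glucagon-only cells, and higher in Ppy-only cells at 57.6 and 57.5 (log2 of insulin-only over Ppy-only -0.98, SE 0.21, adjusted p = 0.00258) and in hormone-free cells at 81.1 and 64.4 (-1.45, SE 0.20, adjusted p = 1.06e-05). Gclm was at 62.9 and 72.7 in hormone-free cells, below insulin-only cells (log2 0.41), and DESeq2 did not make this call either. Gss, glutathione synthetase, and Gsr, glutathione reductase, passed in none of the 6 comparisons. Gsr was at 49.8 and 44.2 in insulin-only and 38.5 and 31.5 in glucagon-only cells.

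Glutathione transferases couple glutathione to reactive compounds, and their genes come in clusters of similar copies, so UMIs of the mu, alpha, pi and theta classes may be split between them. Of 21, 17 were tested. Gstm1 and Gstm2 of the mu class had the largest log2 fold changes of the transferases past the threshold between insulin-only and glucagon-only cells. Gstm1 was at 60.9 and 64.4 in insulin-only, 8.38 and 17.4 in glucagon-only, 39.5 and 58.6 in Ppy-only and 85.7 and 53.6 in somatostatin-only cells. Glucagon-only cells were below both insulin-only cells (log2 2.29 for insulin-only over glucagon-only, SE 0.28, adjusted p = 8.63e-06) and somatostatin-only cells (-2.35, SE 0.35, adjusted p = 1.73e-04). Gstm2 was at 12.5 and 22.3 in insulin-only cells, 1.90 and 1.77 in glucagon-only cells (3.21, SE 0.54, adjusted p = 3.32e-04) and 0 in both libraries of somatostatin-only cells. Insulin-only cells were at least 4.30-fold higher than the latter, taking 3 UMIs over the group as the limit a count of 0 allows.

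Gstz1, which isomerises maleylacetoacetate in tyrosine breakdown, was shared by the endocrine groups, at 397 and 351 in insulin-only, 459 and 452 in glucagon-only, 310 and 352 in somatostatin-only and 309 and 327 in Ppy-only cells. Hormone-free cells had 81.7 and 64.4 (log2 of insulin-only over hormone-free 2.26, SE 0.13, adjusted p = 7.39e-10). Gstt2 of the theta class was lower in insulin-only cells, at 15.5 and 21.5, than in glucagon-only cells, at 48.4 and 45.3 (-1.32, SE 0.26, adjusted p = 0.00109), and Ppy-only cells, at 47.3 and 45.7 (-1.30, SE 0.28, adjusted p = 0.00271). Gstt1 differed only from Ppy-only cells among these comparisons of insulin-only with other endocrine cells, at 49.1 and 42.1 against 92.8 and 90.9 (-0.97, SE 0.18, adjusted p = 9.92e-04). Gstm7 was also higher in Ppy-only cells, at 20.6 and 13.5 against 5.91 and 2.11 (-1.99, adjusted p = 0.00946). Gsta4 and Gstt3 passed there with 9 and 10 UMIs in Ppy-only cells against 1 each in insulin-only cells, with counting intervals of the ratio from 2.21 to 699 and from 2.52 to 769. The Gstt3 call was lost under 5 alternatives, the replicate block among them, and the Gsta4 call with DESeq2. Gstp1 of the pi class was at 40.6 and 43.0 in insulin-only and 42.7 and 34.7 in glucagon-only cells. Of the 6 comparisons, it passed only against hormone-free cells, where insulin-only cells were lower. Its pseudogene Gstp-ps took 46.5 and 40.4 in insulin-only cells, about as much as Gstp1's own row. With those UMIs added, the level was 87.1 and 83.4 in insulin-only, 88.7 and 79.7 in glucagon-only and 116 and 158 in somatostatin-only cells.

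Of the quinone and heme enzymes, Nqo1, a quinone reductase and classic Nrf2 target, was at 6.27 and 5.90 in insulin-only and 1.90 and 0.354 in glucagon-only cells (log2 2.40, SE 0.71, adjusted p = 0.0201), from 31 and 6 UMIs, and DESeq2 did not call it. Hmox1, the inducible heme oxygenase, had 14 UMIs in all insulin-only cells, and 43.4 and 26.6 in leukocyte-like cells. Constitutive Hmox2, at 19.6 and 15.2 in insulin-only and 10.3 and 12.0 in glucagon-only cells, passed in none of the 5 comparisons that involve hormone-positive cells.

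**Figure D3:**
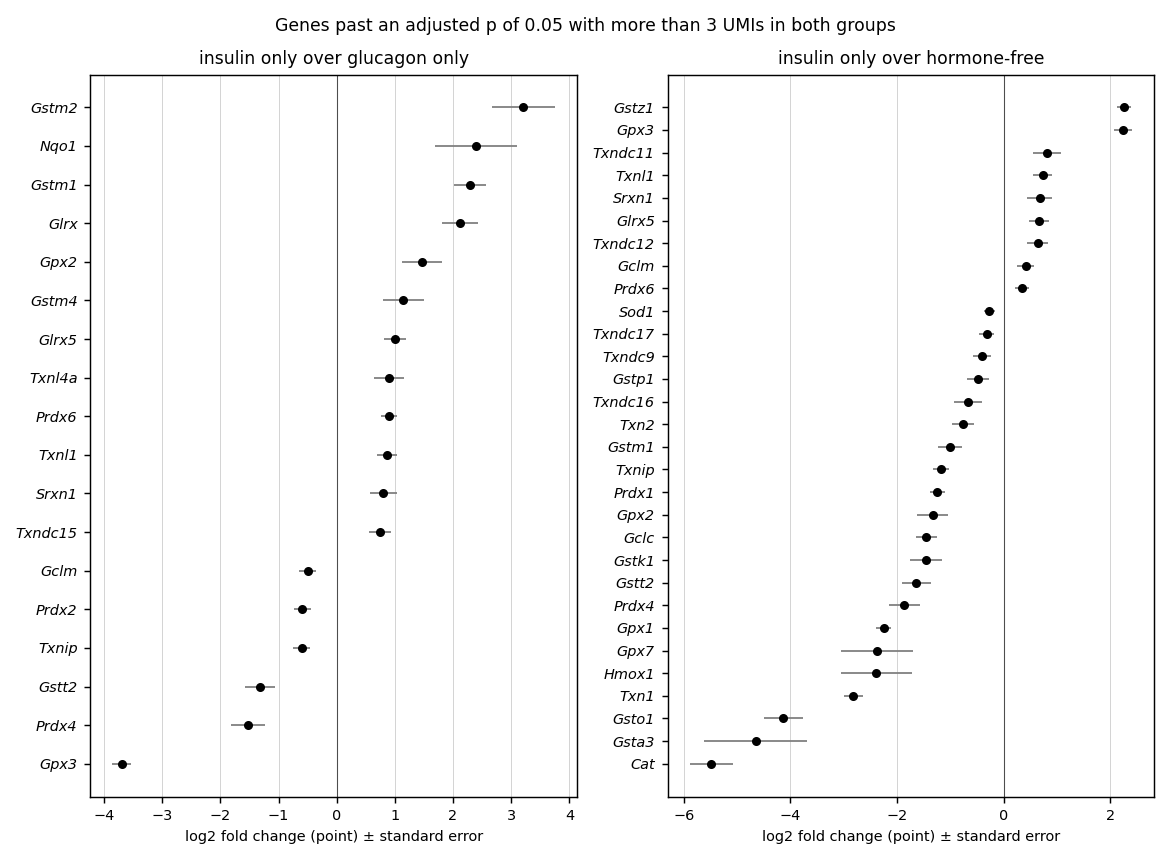
Log2 fold change with its standard error (horizontal axes) of the genes past an adjusted p of 0.05 with more than 3 UMIs in both groups, for insulin-only over glucagon-only cells on the left and over hormone-free cells on the right. Gpx3 lies at -3.69 on the left and 2.24 on the right, and Cat at -5.49 on the right.

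The hormone-free cells were not uniform. Between endothelial-like and leukocyte-like cells, 26 of 55 tested members passed, 15 higher in endothelial-like and 11 higher in leukocyte-like cells, where 41.7% of all 14208 genes tested passed, 23.4% as higher in endothelial-like and 18.3% as higher in leukocyte-like cells. Gpx8 was at 120 and 97.0 in endothelial-like cells and 0 in leukocyte-like cells (at least 41.5-fold higher, at a limit of 3 UMIs over the group). Gstm1 was at 171 and 134 against 5.42 and 9.40 (log2 4.43, SE 0.42, adjusted p = 1.52e-07), Gclm at 62.1 and 84.8 against 27.1 and 26.6 (1.63, SE 0.27, adjusted p = 9.40e-05) and Txnip at 874 and 727 against 304 and 357 (1.41, SE 0.17, adjusted p = 2.06e-06). Leukocyte-like cells had more Gpx1, at 589 and 783 against 269 and 332 (-1.05, SE 0.18, adjusted p = 1.29e-04), more Prdx3, at 47.0 and 40.7 against 11.1 and 9.92 (-1.93, SE 0.52, adjusted p = 0.00588), and more Hmox1, at 43.4 and 26.6 against 6.66 and 4.41 (-2.57, SE 0.76, adjusted p = 0.012).

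Some of these values rested on few cells or moved with other markers. For Txndc5, higher in leukocyte-like cells at 197 and 50.1 against 28.9 and 24.2, 3 cells held 70.2% of the UMIs. For Hmox1 in leukocyte-like cells 3 cells held 56.1%. Endothelial-like cells of library 1 had mesenchymal markers at 2466 against 80.4 in library 2, and erythroid markers at 2166 against 457, and their part in the result was not tested. Leukocyte-like cells held both macrophage markers, at 1898 and 3195, and B and T cell markers, at 1951 and 1380. Catalase (log2 -0.10, adjusted p = 0.91), Txn1 (0.29, adjusted p = 0.22), Sod1 (0.19, adjusted p = 0.30) and Prdx1 (0.02, adjusted p = 0.96) did not pass between the 2 kinds of cells.

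**Figure D4:**
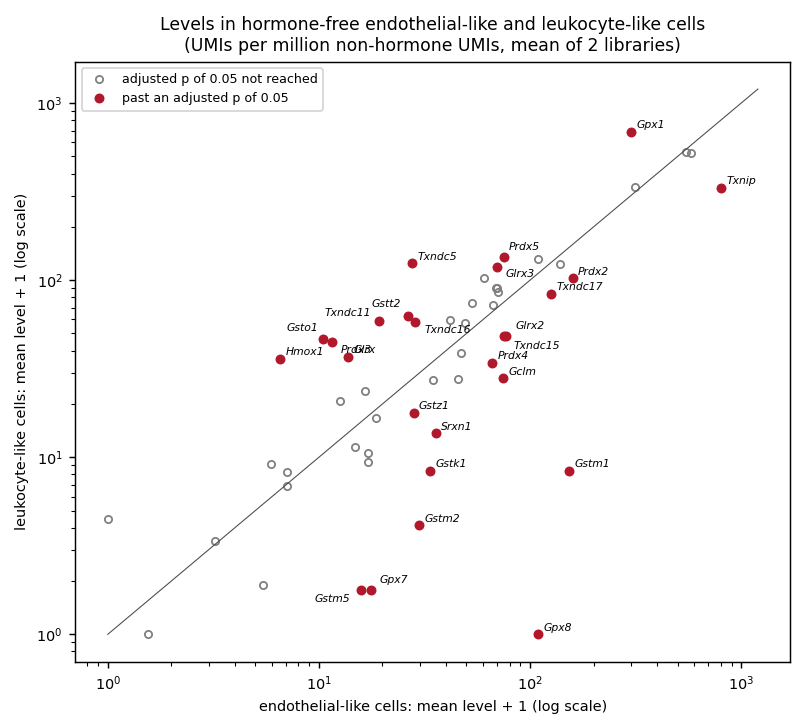
Mean level plus 1 over the 2 libraries (UMIs per 1000000 non-hormone UMIs, both axes logarithmic) of the 55 tested genes in endothelial-like (horizontal) and leukocyte-like cells (vertical), with filled points past an adjusted p of 0.05 and the line of equal levels. Gpx8 and Gstm1 lie far below the line, and Gpx1 and Txndc5 lie above it.

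The 42 other hormone-free cells, 23 and 19 in the libraries, had a higher summed level than any other group, 9264 ± 641, and no test was made on them. Gpx1 stood at 1045 and 990, Gsto1 at 341 and 408, Gstm3 at 111 and 204, Gsta4 at 106 and 70.2 and Gsta3 at 92.0 and 27.7. All 162 UMIs of Gsta1 were in these cells, at 228 and 45.7, and 3 cells held 99.4% of them. For Gstm3 the 3 highest cells held 80.5%, and for Gpx1 34.0%. Against the whole hormone-free group, the values of Gsta1, Gstm3, Gsta4 and Gstt3 in insulin-only cells came from 0, 1, 1 and 1 UMIs. Gsta1 was at least 73.2-fold higher in hormone-free cells, and the ratios of Gstm3, Gsta4 and Gstt3 were 258, 149 and 123 with counting intervals from 45.7 to 10229, from 26.2 to 5945 and from 21.6 to 4927.

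Insulin-only cells were also divided within each library at the median share of their UMIs that was insulin, and values are described without a test. The median share was 33.0% and 35.8% in the lower cells and 44.7% and 49.1% in the upper cells, whose median UMIs were 17921 and 16287 against 23032 and 19920. Txnip was at 461 and 401 in the lower cells and at 171 and 141 in the upper cells. Gpx3 was at 249 and 268 against 130 and 82.0, and Gclc at 35.8 and 31.6 against 23.5 and 16.8. Other members were higher in the upper cells: Glrx5 at 202 and 207 against 138 and 150, Gstm2 at 23.5 and 40.0 against 5.46 and 10.5, Hmox2 at 28.3 and 22.1 against 14.0 and 10.5, and Txndc17 at 150 and 132 against 95.9 and 98.3. Sod1, at 507 and 491 in the lower and 543 and 529 in the upper cells, differed little. The directions of the genes named here were the same in both libraries, whose cells come from 1 preparation. These genes are a selection of the members, so their agreement between libraries is no test of the pattern. Other members, among them Glrx, Glrx3, Gstp1 and Txnl4a, changed direction between the libraries.

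**Figure D5:**
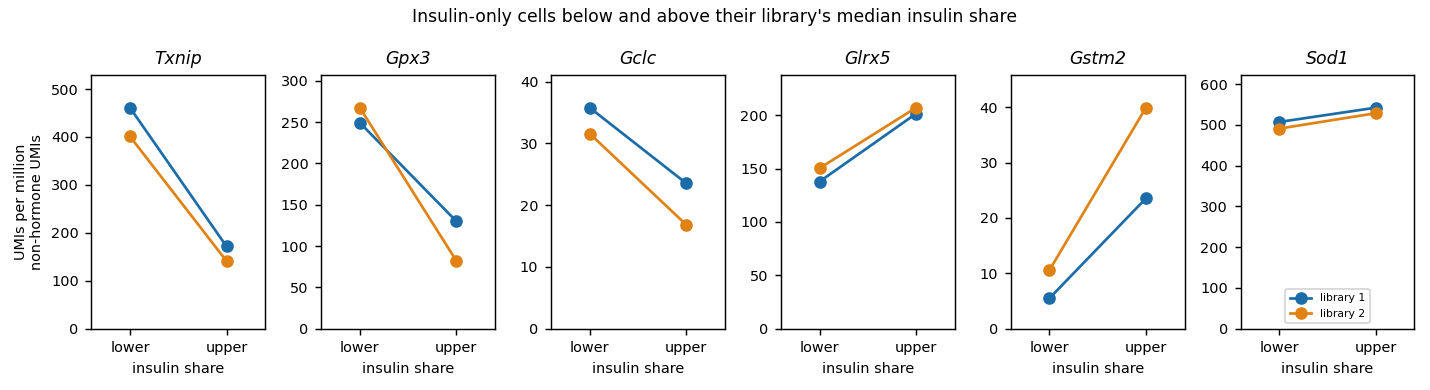
Level of 6 genes (vertical axes from 0, UMIs per 1000000 non-hormone UMIs) in insulin-only cells below and above the median insulin share of their library, with 1 line per library. Txnip, Gpx3 and Gclc are lower in the upper cells, Glrx5 and Gstm2 are higher, and Sod1 differs little.

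A list of 63 other genes of the pathway (Nrf2 regulators, NADPH supply, cystine import and glutathione turnover, microsomal transferases, iron, selenoproteins and oxidant sources) was described beside the members. Of 58 tested, 18 were higher and 5 lower in insulin-only than in glucagon-only cells, 9 and 1 against somatostatin-only, 10 and 5 against Ppy-only, and 12 and 31 against hormone-free cells. The shares of all genes that passed as higher and as lower were 12.9% and 12.6%, 7.4% and 7.32%, 10.2% and 10.5%, and 24.3% and 32.9% in the same order. Ero1lb, the beta cell oxidase that makes disulfide bonds and hydrogen peroxide in the endoplasmic reticulum, was at 2071 and 1792 in insulin-only cells against 122.6 and 122.5 in glucagon-only and 66.02 and 34.7 in hormone-free cells (log2 of insulin-only over hormone-free 5.18). Nfe2l2, which encodes Nrf2, was at 41.3 and 33.7 in insulin-only and 179 and 169 in hormone-free cells (-2.31). Ferritin heavy chain, Fth1, was at 687 and 775 against 2335 and 2012 (-1.67), and the microsomal transferase Mgst1 at 0.369 and 1.26 against 174 and 90.3. Slc7a11, which imports cystine for glutathione, was at or below 1.11 in insulin-only, glucagon-only, somatostatin-only, Ppy-only and hormone-free cells. Nnt was between 1.39 and 6.70 in the same groups.

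The 7 members that were not tested for low counts were Gstm6, Gstp2, Gstp3, Gstt4, Prdx6b, Sod3 and Txnrd3, with 6 to 133 UMIs over all cells. Of the 66 genes, 24 overlap another annotated gene, 21 of them on the other strand, which includes Sod1, Gstz1, Txnip and Gss. With pseudogene UMIs added to their gene, the members called were 19, 13, 16, 13, 36 and 27 in place of 18, 12, 15, 13, 35 and 26, in the order of insulin-only against glucagon-only, somatostatin-only and Ppy-only, glucagon-only against somatostatin-only, insulin-only against hormone-free, and endothelial-like against leukocyte-like cells. The shares of all genes that passed with them added were 25.65%, 14.72%, 20.74%, 12.83%, 57.24% and 41.72%.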

How the data were processed

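The authors deposited 1 table of whole-number UMI counts per library, with genes in rows and cell barcodes in columns. According to the study's methods they were made with the Cytonaut software, which selected barcodes above a knee with UMI-tools, aligned reads to exons of GRCm38 and removed duplicates. The submitters' processing notes also name Seurat. All 1483 cells had at least 200 genes and at most 20% mitochondrial UMIs, so 0 were removed. Scrublet called 16 doublets, which were kept and removed as an alternative. The libraries shared 0 barcodes.

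Counts were summed per cell group and library and tested by edgeR's quasi-likelihood method (version 4.0.16, R 4.3.3) after TMM scaling and the filterByExpr filter. P-values were adjusted by Benjamini and Hochberg's method over all genes, with a threshold of 0.05. The 5 hormone genes were left out of the table. A first fit held 8 groups (14528 genes, 8 residual degrees of freedom). A second had endothelial-like and leukocyte-like cells in place of all hormone-free cells (14208 genes, 9 residual degrees of freedom). Endothelial-like and leukocyte-like cells needed at least 3 markers of 1 list and 2 more than of the other, and 6 cells lay within 1 marker of these limits. Other combinations of hormones were left out. With 2 technical replicates, p-values measure only the spread between these libraries. Intervals of ratios are exact binomial and cover counting error only. The fit was tested on simulated data with a smaller spread than the real fits, whose biological coefficients of variation were 15.1% and 15.3%. That test therefore does not cover the spread of these data. Gene positions came from GENCODE M21 on GRCm38.

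Genes named are 27 fixed enzymes plus, per comparison, up to 10 members in each direction past the threshold with an absolute log2 fold change of at least 1 and the same direction in both libraries, and smaller changes were named where a role was described. The members and lists were chosen with earlier results of these data known. Alternatives were DESeq2, RLE scaling, no filter, hormone genes kept, thresholds of 0.5% and 2%, grouping by the hormone with most UMIs, doublets removed and the replicate block. The addition of pseudogene UMIs and the removal of hormone-positive cells with endothelial or leukocyte markers were chosen after seeing the data.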

Additional observations from a re-analysis of the deposited data

How the results depend on the processing

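The number of members called stayed within 1.5 times its value under each of the 11 fitted alternatives in all 6 comparisons: 15 to 21 for insulin-only against glucagon-only, 10 to 14 against somatostatin-only, 13 to 16 against Ppy-only, 27 to 37 against hormone-free, 11 to 15 for glucagon-only against somatostatin-only and 23 to 28 for endothelial-like against leukocyte-like cells. The share of all genes that passed moved more. In the same order it was 12.0% to 26.2%, 7.74% to 17.3%, 9.92% to 21.5%, 28.8% to 59.2%, 6.83% to 15.7% and 19.1% to 43.3%. Each lowest share came with no filter, which tested 31786 and 31247 genes in the 2 fits. Of 92 named fold changes past the threshold, 73 stayed past it under every alternative that could be fitted, and none reversed. The other 19 lost the call under 1 to 7 alternatives, among them Gpx2 against somatostatin-only cells (7), Sod1 against hormone-free cells (6) and Gstt3 against Ppy-only cells (5), all 3 compared with insulin-only cells. With the replicate block the calls were 18, 11, 14, 34, 13 and 26 in the same order. Of all genes, 25.7%, 14.3%, 20.5%, 57.2%, 12.6% and 41.1% passed with that block. The library number pairs sums of 1 library only weakly: over 28 pairs of groups the correlation of the library differences lay between -0.0858 and 0.142. Left with 1 library, no residual degrees of freedom remain, so no test was made. All 92 fold changes had the same direction in both libraries. For members outside the 27 fixed enzymes this was a condition of naming, so it could not fail. Somatostatin-only cells, with 455071 and 298300 non-hormone UMIs, gave the shallowest sums, so that 3 UMIs stand for a level of 3.98 there and for 0.590 in insulin-only cells.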
